A study of Mus musculus with 6 samples.

Results

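Fatty acid and triglyceride synthesis was described by 34 genes, chosen by name from the enzymes that supply carbon and reducing power, build, lengthen and desaturate fatty acids, take up and activate them and join them to glycerol, together with regulators of the pathway. Genes that coat lipid droplets were left out. Of the 34 genes, 33 had a value among the 18194 genes measured, because no probe set named Acsl1, a long-chain acyl-CoA synthetase, alone. A probe set is the group of short oligonucleotides on the array that reports 1 transcript, and where a gene had several the brightest by its mean was used.

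In the lactating gland the secretory luminal cells make much of the milk fat themselves. Citrate leaves the mitochondrion and is cleaved to acetyl-CoA, acetyl-CoA carboxylase and fatty acid synthase build the chain, and in mammary epithelium the thioesterase encoded by Olah releases it early as the medium-chain fatty acids of milk. Longer chains arrive from the blood through lipoprotein lipase, are activated to acyl-CoA and are esterified to triglyceride, while the transcription factors encoded by Srebf1 and Mlxipl are known activators of these genes. Adipocytes, which surround the epithelium, use nearly all of the same enzymes.

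RNA came from whole mammary glands of age matched female mice at involution day 2, that is 2 days after the pups were removed and suckling stopped, with 3 WT mice (Nas478, Nas483 and Nas484) and 3 Rac1-/- mice (Nas496, Nas497 and Nas518) and 1 Affymetrix mouse GeneChip array for each mouse. Both groups carried Rac1 fx/fx alleles and a Rosa YFP reporter. The Rac1-/- mice carried in addition the WAPiCre transgene, in which the whey acidic protein promoter drives Cre recombinase in luminal epithelial cells from mid-pregnancy, and the WT mice lacked Cre, so that Cre itself was also a difference between the groups. Fat, stroma, blood vessels and immune cells of the Rac1-/- glands were not targeted by this transgene. The comparison asked how the gland at the start of involution differs when its luminal cells lack this small GTPase. Because whole glands were measured, fewer cells of a type and less RNA per cell cannot be told apart in any value below.

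The arrays were not alike. Along a first principal component with 44.3% of the variance, Nas478, Nas483 and Nas484 (WT) scored -77.8, -74.4 and 64.5. Nas496, Nas497 and Nas518 (Rac1-/-) scored -36.2, 119.2 and 4.7. The scores formed a gradient, with Nas484 and Nas497 at 1 end and Nas518 in between. The members and the gene lists are also described without Nas484 and Nas497. The interquartile range of log2 intensity, before normalization between arrays, was 2.85, 2.42 and 1.42 for WT, then 1.98, 1.23 and 1.48 for Rac1-/- mice. Actin signal from the 3' end minus that from the 5' end, on the log2 scale, a readout of RNA quality, ran from -0.17 to 0.048 in WT and from -1.24 to -0.30 in Rac1-/- mice, with no overlap. Both bright Rac1 probe sets had log2 intensities of 9.31, 9.50 and 8.97 in WT against 9.51, 9.01 and 9.84 in Rac1-/- mice and of 8.74, 9.001 and 9.89 against 8.77, 8.34 and 8.14. The sources used here do not name the exons removed, and these probe sets do not check the deletion. The milk protein genes, which define the secretory gland, had a median log2 intensity of 12.28 to 15.16 on every array, and no gene of any marker list was at the floor.

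All values below are log2 intensities after quantile normalization, given for WT in the order Nas478, Nas483, Nas484 and for Rac1-/- in the order Nas496, Nas497, Nas518. Differences are Rac1-/- minus WT on the log2 scale with the standard error (SE) of the limma model, n = 3 mice per group, and adjusted p-values are Benjamini-Hochberg values over all 18194 genes with a threshold of 0.05. No member passed that threshold, and neither did any other gene, so percent called was 0 in the background as well. The adjusted p of the members ran from 0.946 to 0.998. A rank comparison of 3 mice against 3 cannot go below an exact permutation p of 0.1. At an unadjusted limma p under 0.05, 0 members were higher in Rac1-/- glands, where the background over all genes was 2.23%, and 3 members were lower (Olah, Slc27a4 and Srebf1), where the background was 1.82%. In 3 members, the same genes, all Rac1-/- mice lay below all WT mice, against 4.2% of all genes, and in 1 member, Mlxipl, all Rac1-/- mice lay above all WT mice, against 5.41% of all genes.

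Most members had a lower mean in Rac1-/- glands, without passing the test. The difference was below 0 for 25 of 33 members (75.8%) and above 0 for 8, whereas it was below 0 for 46.1% of all genes. The median difference of the members was -0.28, and that of all genes was 0.060. Most members were brighter than the typical gene. Among genes above the median mean only, 22 of 30 members lay below 0, at a median of -0.27 against -0.028 for all those genes. Other scalings moved the median of all genes, to -0.12 with arrays scaled to a common median and to 0.35 with no further normalization, and the members' median was then -1.21 and -0.74. The medians given for each role below moved down likewise, for elongation and desaturation from -0.48 to -1.21 and -0.74 and for triglyceride assembly from -0.41 to -1.17 and -0.70. With the actin readout as a covariate 17 members lay above 0 and 16 below, at a median of 0.0035, and with the interquartile range in its place 15 lay above and 18 below, at a median of -0.020. With either array measure in the model the members were split nearly evenly around 0. The actin readout did not overlap between the groups, so that model cannot tell genotype from RNA quality. No conclusion is drawn from the split. The members at these medians, Acly with the actin readout and Acaca with the interquartile range, each had an SE of 0.56.

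**Figure D1:**
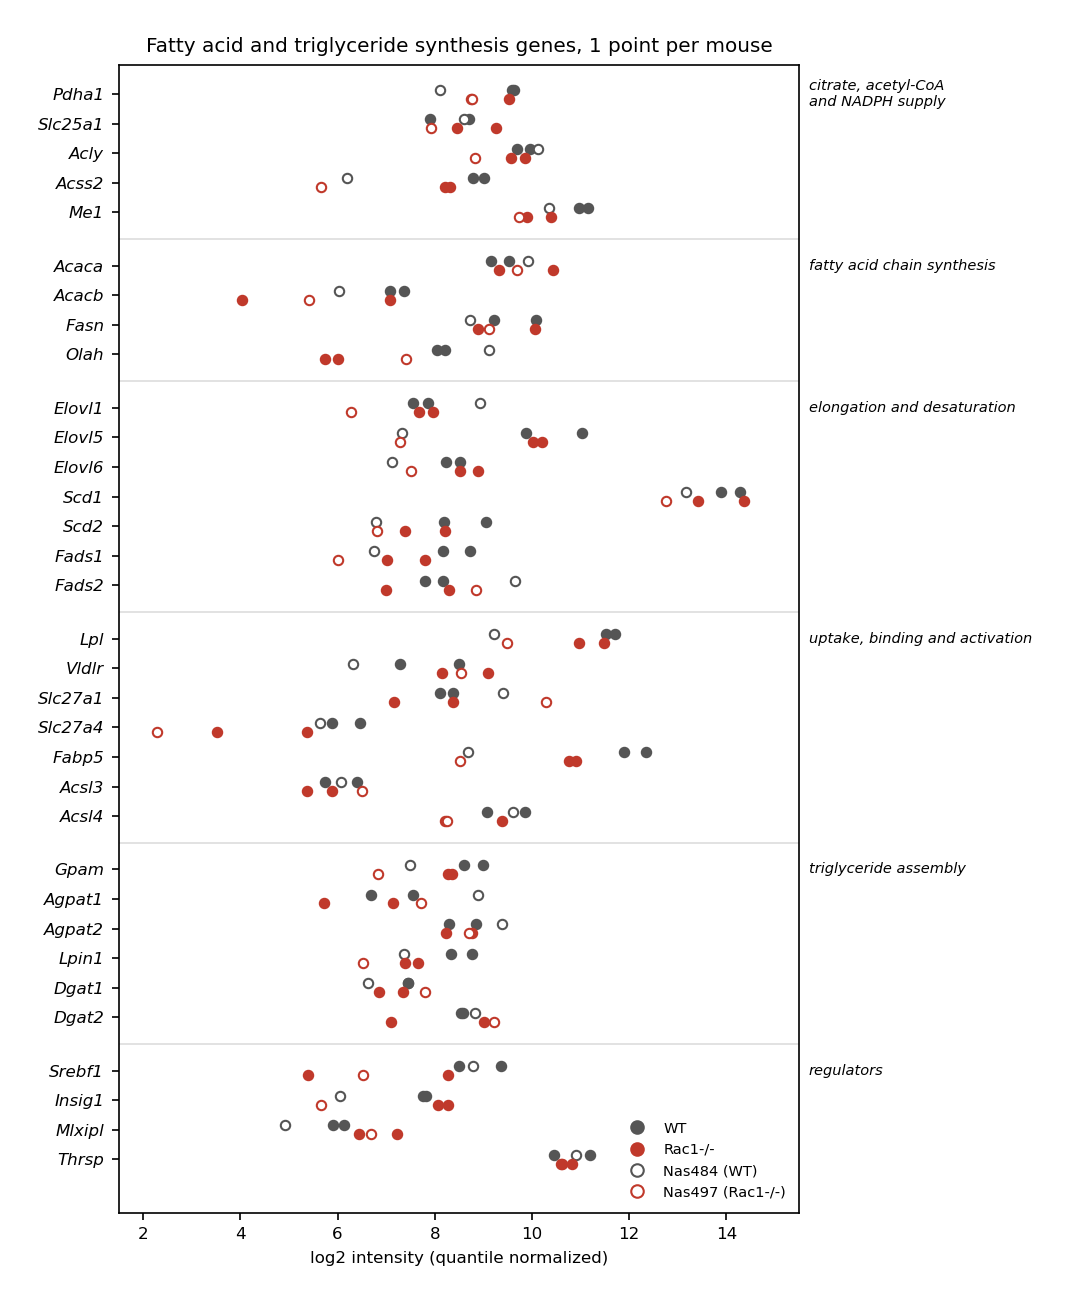
Log2 intensity (x axis, quantile normalized) of the 33 members (rows, grouped by role), with 1 point per mouse; grey points are WT, red points Rac1-/-, and open points the arrays of Nas484 and Nas497. The groups overlap for all members except Olah, Slc27a4 and Srebf1, where the red points lie to the left, and Mlxipl, where they lie to the right.

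**Figure D2:**
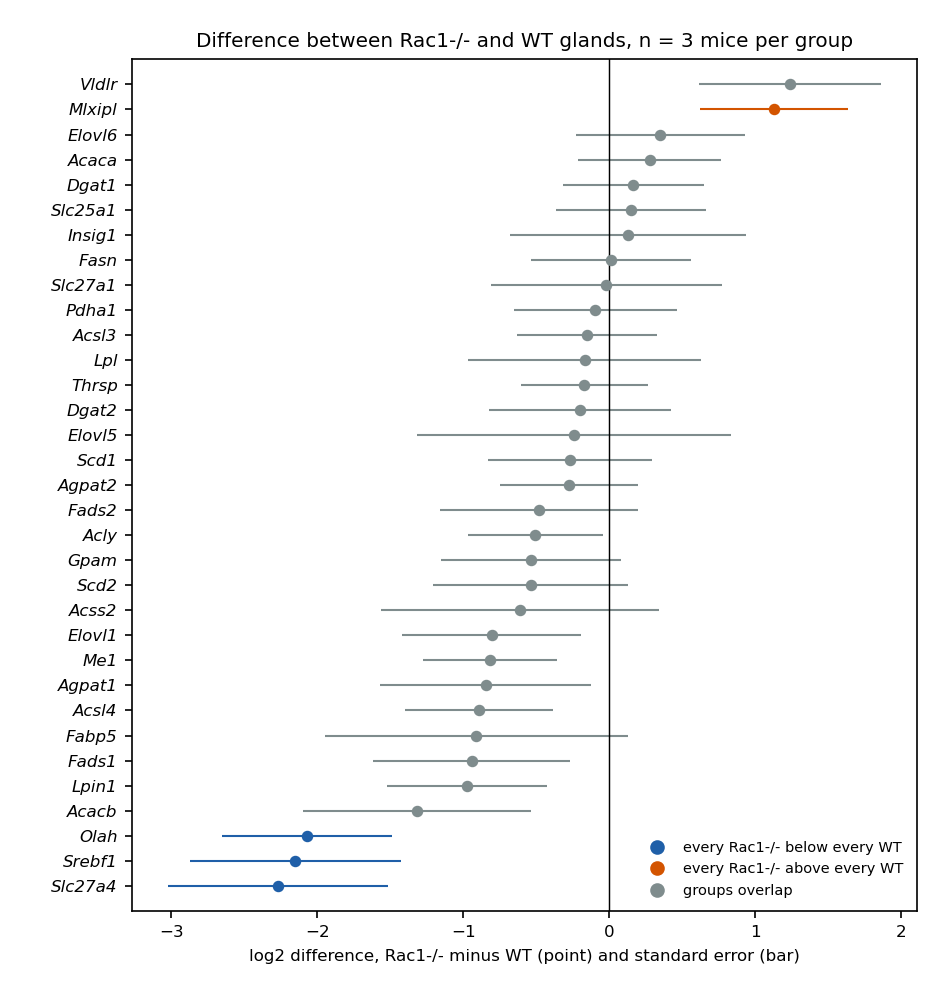
Log2 difference between Rac1-/- and WT glands (x axis) for each member, with bars of 1 standard error and n = 3 mice per group. The differences run from -2.27 for Slc27a4 to 1.24 for Vldlr, with 25 below 0 as reported and 16 below 0 once the actin readout is a covariate, and none passed an adjusted p of 0.05.

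The promoters of the 4 members whose groups did not overlap, and of Fasn, whose mean hardly differed, are shown because the known activators of the pathway bind near transcription starts. The sequences are the 250 bases before the most upstream start in RefSeq (build GRCm38.p6), on the coding strand, and capitals mark each CCAAT box (NF-Y box, read ATTGG on the other strand) and each E-box (CACGTG).
Olah, chr2:3366570-3366819, minus strand: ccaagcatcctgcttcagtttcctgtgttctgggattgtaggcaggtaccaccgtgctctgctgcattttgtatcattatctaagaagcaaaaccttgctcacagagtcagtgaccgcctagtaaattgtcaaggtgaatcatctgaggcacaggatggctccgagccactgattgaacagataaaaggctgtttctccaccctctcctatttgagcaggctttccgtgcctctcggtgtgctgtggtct
Slc27a4, chr2:29802384-29802633, plus strand: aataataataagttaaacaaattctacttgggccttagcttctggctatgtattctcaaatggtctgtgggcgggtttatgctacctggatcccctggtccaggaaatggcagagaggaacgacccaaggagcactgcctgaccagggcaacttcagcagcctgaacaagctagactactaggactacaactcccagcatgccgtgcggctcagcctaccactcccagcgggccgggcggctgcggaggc
Srebf1, chr11:60222582-60222831, minus strand: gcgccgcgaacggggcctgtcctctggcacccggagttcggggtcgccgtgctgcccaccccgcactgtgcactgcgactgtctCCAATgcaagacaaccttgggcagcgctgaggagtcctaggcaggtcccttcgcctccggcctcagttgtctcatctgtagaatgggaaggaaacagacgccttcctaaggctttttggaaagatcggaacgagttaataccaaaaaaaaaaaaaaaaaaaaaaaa
Mlxipl, chr5:135089640-135089889, plus strand: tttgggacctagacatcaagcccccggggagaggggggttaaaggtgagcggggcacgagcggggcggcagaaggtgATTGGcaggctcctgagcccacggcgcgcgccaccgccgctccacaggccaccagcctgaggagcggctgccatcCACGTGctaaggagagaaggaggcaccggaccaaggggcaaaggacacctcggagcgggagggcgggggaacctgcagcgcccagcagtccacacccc
Fasn, chr11:120824548-120824797, minus strand: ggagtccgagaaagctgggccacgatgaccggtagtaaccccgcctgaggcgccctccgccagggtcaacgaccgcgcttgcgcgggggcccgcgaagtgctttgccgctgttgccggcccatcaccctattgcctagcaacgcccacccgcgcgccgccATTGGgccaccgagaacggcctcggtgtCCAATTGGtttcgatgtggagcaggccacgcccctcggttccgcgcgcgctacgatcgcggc

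The windows of Olah and Slc27a4 held none of the motifs searched, that of Srebf1 held 1 CCAAT box, that of Mlxipl held 1 CCAAT box and 1 E-box, and that of Fasn held 3 CCAAT boxes, of which a pair overlap. Of the 34 members, 27 had a window in the table. CCAAT was present on either strand in 14 of 27 windows (51.9%) and in 34.5% of all 27025 windows of the same length. CACGTG, the same on both strands, was present in 4 of 27 (14.8%), those of Elovl5, Insig1, Mlxipl and Slc25a1, and in 6.04% of all windows. TCACNCCAC, a form of the sterol regulatory element, was present in 0 of 27 windows and in 1.03% of all windows, and TTCNNNGAA, the Stat5 site, in 1 of 27 (3.70%), that of Agpat1, and in 7.14% of all windows. A match is only a run of letters, and a window without a match says nothing of the factor. RefSeq gave 3 starts for Srebf1 and 2 for Mlxipl, and the windows shown belong to the most upstream only. Which start gave the measured signal was not tested.

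The supply of carbon and reducing power was measured by 5 genes, whose values all overlapped between the groups. Pdha1, a subunit of pyruvate dehydrogenase, had log2 intensities of 9.63, 9.59 and 8.12 in WT and 8.75, 8.78 and 9.52 in Rac1-/- mice, a difference of -0.10 (SE 0.56). For Slc25a1, the carrier that exports citrate from the mitochondrion, they were 7.90, 8.70 and 8.61 against 9.26, 7.93 and 8.46, a difference of 0.15 (SE 0.52). Acly, which cleaves citrate to acetyl-CoA in the cytosol, read 9.70, 9.97 and 10.12 in WT and 9.85, 8.84 and 9.57 in Rac1-/- mice, a difference of -0.51 (SE 0.46). The Acly value of Nas497 was the lowest of the 6, while the other Rac1-/- mice were within or near the WT range. Acss2, which makes acetyl-CoA from acetate, read 8.79, 9.02 and 6.20 against 8.31, 5.65 and 8.21, a difference of -0.61 (SE 0.95). Its spread lay almost wholly between Nas484 and Nas497 on one side and the other 4 mice on the other. Me1, malic enzyme, a source of the NADPH that chain synthesis consumes, read 10.96, 11.16 and 10.35 against 9.90, 9.73 and 10.39, a difference of -0.82 (SE 0.46). Here all Rac1-/- mice lay below Nas478 and Nas483, and only Nas518 reached the level of Nas484. In this role 4 of 5 genes lay below 0 with a median of -0.51, and the sign of Slc25a1 turned to -0.58 with arrays scaled to a common median.

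Chain synthesis itself split, with group means close together for both core enzymes and far apart for the enzyme that ends the chain. Acaca, the cytosolic acetyl-CoA carboxylase that makes malonyl-CoA, read 9.53, 9.16 and 9.92 in WT and 9.31, 9.68 and 10.44 in Rac1-/- mice, a difference of 0.28 (SE 0.49). Fasn, fatty acid synthase, read 9.22, 10.08 and 8.74 against 10.07, 9.11 and 8.88, a difference of 0.01 (SE 0.55). Both overlapped between the groups, and both differences were below 0 with arrays scaled to a common median, at -0.82 for Acaca and -0.96 for Fasn. Acacb, the carboxylase of the outer mitochondrial membrane whose malonyl-CoA restrains fatty acid oxidation, read 7.37, 7.07 and 6.02 against 7.08, 5.42 and 4.03, a difference of -1.32 (SE 0.78). Nas496 reached the WT values of Acacb, and Nas497 and Nas518 lay below them all. A dimmer probe set of Acacb had the opposite sign, at 0.57 (SE 0.83).

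Olah had the smallest p of the members. Its log2 intensity was 8.21, 8.05 and 9.12 for WT against 5.75, 7.41 and 6.01 for Rac1-/- mice, so that the groups did not overlap and the highest Rac1-/- value was that of Nas497. The group means were 8.46 ± 0.58 and 6.39 ± 0.89 (SD, n = 3), a difference of -2.07 (SE 0.59, limma unadjusted p = 0.0070, adjusted p = 0.946), or 4.20-fold lower in Rac1-/- glands. A second probe set of Olah read 8.17, 7.87 and 9.06 against 5.86, 6.18 and 4.47, a difference of -2.86 (SE 0.61), again without overlap. Over the 17 alternative settings the difference of Olah ran from -3.22 to -1.72, with an unadjusted p under 0.05 in each. Olah is made by the secretory epithelium, and the milk protein genes also had lower means, with none called. Of these 0 of 8 were above 0, their median difference was -1.32, 5 of 8 lay wholly below WT where 4.2% of all genes did, and their summed linear intensity was 275705 to 296004 in WT and 98334 to 170898 in Rac1-/- glands. The luminal epithelial markers did not show this pattern, with 6 of 10 above 0, a median of 0.57 and summed intensities of 8639 to 11070 in WT and 8723 to 9054 in Rac1-/- glands. The part of secretory cell state or number in the Olah value was not tested.

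Elongation and desaturation were measured by 7 genes, of which 6 lay below 0 with a median of -0.48. Elovl1, an elongase of saturated very long chains, read 7.55, 7.86 and 8.94 in WT and 7.97, 6.27 and 7.68 in Rac1-/- mice, a difference of -0.81 (SE 0.61). Its other probe sets ran from -3.25 to 0.25. Elovl5, an elongase of polyunsaturated chains, read 9.88, 11.03 and 7.33 against 10.21, 7.29 and 10.01, a difference of -0.24 (SE 1.07). Elovl6, which extends palmitate to stearate, read 8.24, 8.53 and 7.11 against 8.89, 7.51 and 8.53, a difference of 0.35 (SE 0.58) that was -0.40 with arrays scaled to a common median. In both Elovl5 and Elovl6 the mice with low values were Nas484 and Nas497, 1 from each group. Scd1, the desaturase that makes oleate from stearate, was bright on every array, with 13.89, 14.28 and 13.18 against 13.42, 12.76 and 14.36, a difference of -0.27 (SE 0.56). Its other probe set read 12.61, 13.69 and 14.36 against 13.05, 12.52 and 13.42, a difference of -0.56, with Nas484 now the highest of the 6. Scd2, a desaturase of the same family, read 8.20, 9.06 and 6.79 against 8.20, 6.82 and 7.40, a difference of -0.54 (SE 0.67). Fads1 and Fads2 are the front-end desaturases of polyunsaturated chains. Fads1 read 8.18, 8.72 and 6.75 against 7.80, 6.001 and 7.02, a difference of -0.94 (SE 0.68), while its other probe set read 6.54, 6.02 and 6.68 against 6.98, 8.46 and 7.51, a difference of 1.24 (SE 0.54) without overlap. The probe sets of Fads1 thus disagreed in sign. Fads2 read 8.17, 7.79 and 9.65 against 8.30, 8.86 and 7.003, a difference of -0.48 (SE 0.68), and a dimmer probe set of Fads2 did not overlap, at -0.83 (SE 0.46).

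Uptake, binding and activation of fatty acids covered 7 measured genes, of which 6 lay below 0 with a median of -0.17, which was -1.31 with arrays scaled to a common median and -0.84 with no further normalization. Lpl, lipoprotein lipase, which frees fatty acids from blood triglyceride, read 11.53, 11.70 and 9.21 in WT and 10.96, 9.50 and 11.47 in Rac1-/- mice, a difference of -0.17 (SE 0.80). Its other probe set read 10.45, 9.96 and 9.91 against 9.12, 8.66 and 9.98, a difference of -0.85 (SE 0.52), in which Nas484 was no longer far below the other WT mice. Vldlr, a lipoprotein receptor, had the highest difference of the members, 1.24 (SE 0.62), from 7.28, 8.50 and 6.31 against 8.15, 8.55 and 9.10. Its 5 other probe sets ran from -0.39 to 0.86, and without probe sets that can cross-hybridize (those ending in _x_at or _s_at) the gene's difference was -0.16. Slc27a1, a fatty acid transport protein, read 8.11, 8.37 and 9.41 against 8.37, 10.29 and 7.17, a difference of -0.02 (SE 0.79). Its other probe set differed by -0.78 (SE 0.69).

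Slc27a4, another fatty acid transport protein, had the lowest difference of the members. It read 5.89, 6.46 and 5.63 in WT and 5.37, 2.29 and 3.52 in Rac1-/- mice, with means of 5.99 ± 0.42 and 3.73 ± 1.55 (SD, n = 3) and a difference of -2.27 (SE 0.76, limma unadjusted p = 0.016, adjusted p = 0.946). The groups did not overlap, but Nas496 lay only just below the lowest WT mouse, and the gene was dim and had 1 probe set. With a floor of 16 on the linear intensities the difference was -1.54, and over all alternatives it ran from -3.02 to -0.89, with an unadjusted p above 0.05 when Nas483 or both Nas484 and Nas497 were left out and with either covariate. Fabp5, a fatty acid binding protein of epithelium and fat, read 11.89, 12.35 and 8.69 against 10.92, 8.51 and 10.75, a difference of -0.91 (SE 1.04), and its other probe set read 9.17, 9.31 and 8.89 against 9.09, 9.15 and 8.26, a difference of -0.29. Nas484 lay far below the other WT mice in the first Fabp5 probe set and nearer to them, though still lowest, in the second. Acsl3, an acyl-CoA synthetase, read 6.41, 5.75 and 6.07 against 5.38, 6.51 and 5.89, a difference of -0.15 (SE 0.48). That probe set can cross-hybridize, and the 2 dimmer ones differed by -1.75 (SE 1.32) and -1.18 (SE 0.82), both with overlap.

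Acsl4, the acyl-CoA synthetase that prefers arachidonate, depended on the probe set. The brightest read 9.86, 9.07 and 9.62 in WT and 8.22, 8.26 and 9.38 in Rac1-/- mice, a difference of -0.90 (SE 0.51), with Nas518 inside the WT range. The other 2 read 9.78, 9.89 and 9.15 against 8.41, 7.70 and 8.56, a difference of -1.38 (SE 0.49), and 9.53, 9.77 and 10.76 against 7.07, 6.70 and 8.42, a difference of -2.62 (SE 0.62). Neither of these overlapped between the groups. Across the members there were 76 probe sets, of which 58 lay below 0. In 7 of the 76 the Rac1-/- mice lay wholly below the WT mice, beside 4.86% of all probe sets, and in 2 wholly above, beside 4.60%. Of the 26 members with more than 1 probe set, 19 had the same sign in all of them, 17 of these below 0. Signs were mixed within Acly, Acacb, Elovl1, Elovl6, Fads1, Vldlr and Gpam.

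**Figure D3:**
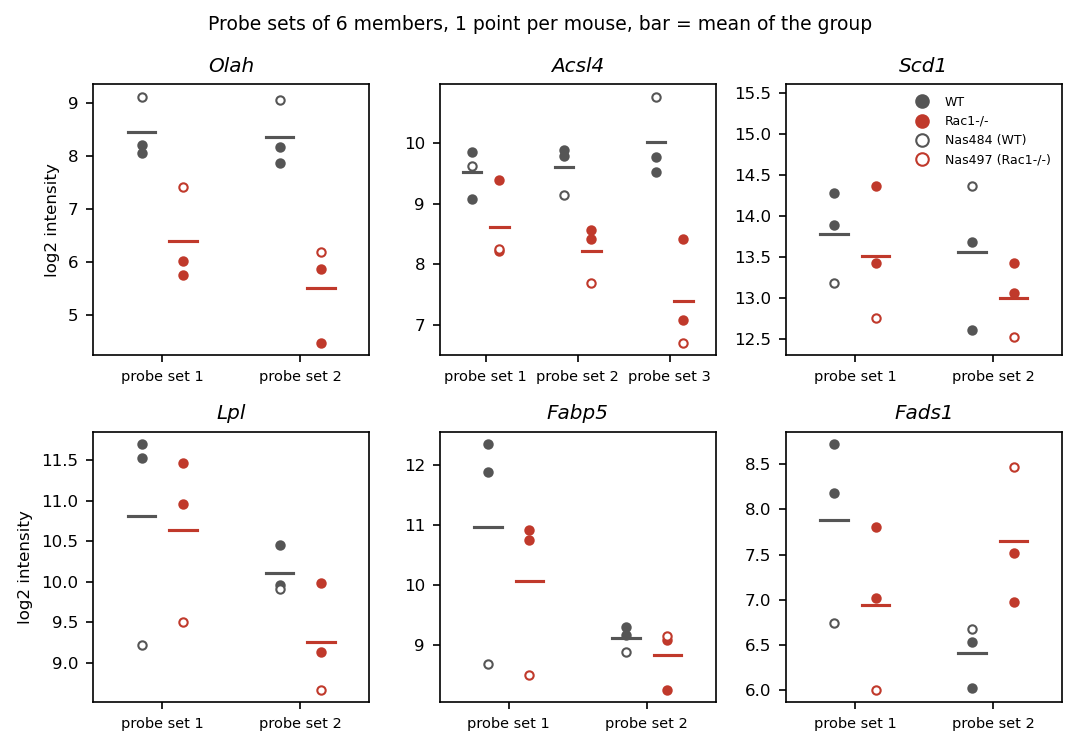
Log2 intensity (y axis) of every probe set of 6 members, with 1 point per mouse and bars at the group means; probe set 1 is the brightest and the one used, and open points are Nas484 and Nas497. All probe sets of Olah and probe sets 2 and 3 of Acsl4 separate the groups. The WT open points of Lpl and Fabp5 lie far below the other WT points in probe set 1. In probe set 2 they lie nearer to them, though still lowest. The 2 probe sets of Fads1 differ in opposite directions.

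Triglyceride assembly was measured by 6 genes, of which 5 lay below 0 with a median of -0.41, and every one overlapped between the groups. Gpam, which adds the first acyl chain to glycerol-3-phosphate, read 8.59, 8.99 and 7.48 in WT and 8.36, 6.83 and 8.28 in Rac1-/- mice, a difference of -0.54 (SE 0.62). Its other probe set had the opposite sign, at 0.49 (SE 0.46). Agpat1 and Agpat2 add the next chain. Agpat1 read 6.68, 7.56 and 8.88 against 7.14, 7.72 and 5.71, a difference of -0.85 (SE 0.73), and Agpat2 read 8.84, 8.29 and 9.39 against 8.77, 8.70 and 8.23, a difference of -0.28 (SE 0.48). For both the highest of the 6 mice was Nas484. Lpin1, the phosphatase that makes diacylglycerol, read 8.34, 8.77 and 7.38 against 7.39, 6.52 and 7.65, a difference of -0.98 (SE 0.55), with all Rac1-/- mice below Nas478 and Nas483. The last step belongs to Dgat1 and Dgat2, which are unrelated in sequence. Dgat1 read 7.45, 7.45 and 6.64 against 7.36, 7.81 and 6.86, a difference of 0.16 (SE 0.48) that was -0.49 with arrays scaled to a common median, and Dgat2 read 8.58, 8.55 and 8.83 against 9.02, 9.23 and 7.09, a difference of -0.20 (SE 0.62). The Dgat2 value of Nas518 stood below all the others, and without this mouse the difference was 0.49.

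The 4 regulators did not move together. Srebf1, which encodes the sterol regulatory element-binding protein that drives lipogenic genes, read 8.49, 9.37 and 8.78 in WT and 8.27, 6.53 and 5.40 in Rac1-/- mice, with means of 8.88 ± 0.45 and 6.73 ± 1.44 (SD, n = 3). The difference was -2.15 (SE 0.72, limma unadjusted p = 0.017, adjusted p = 0.946), or 4.44-fold lower. The groups did not overlap, although Nas496 lay only just below the lowest WT mouse, and Srebf1 had 1 probe set. Over the alternatives its difference ran from -2.86 to -1.53, with an unadjusted p above 0.05 when Nas483, Nas518 or both Nas484 and Nas497 were left out and with either covariate. Mlxipl, which encodes the carbohydrate-responsive partner factor ChREBP, went the other way, with 6.14, 5.91 and 4.93 in WT against 7.22, 6.69 and 6.45. Its means were 5.66 ± 0.65 and 6.79 ± 0.40 (SD, n = 3), a difference of 1.13 (SE 0.50, limma unadjusted p = 0.054, adjusted p = 0.946), from 1 probe set, and over the alternatives it ran from 0.79 to 1.70. Insig1, which holds the sterol-sensing complex of Srebf1 in the endoplasmic reticulum and is itself a target of it, read 7.82, 7.76 and 6.04 against 8.27, 5.66 and 8.08, a difference of 0.13 (SE 0.81). With arrays scaled to a common median it was -0.38. Thrsp, a lipogenic factor of liver, fat and mammary gland, was bright and had the smallest range of the members over the 6 mice, with 11.19, 10.45 and 10.91 against 10.83, 10.59 and 10.61, a difference of -0.17 (SE 0.43). Fasn, Acaca and Scd1, which are among the targets of Srebf1, did not share its separation of the groups. The members closest to Srebf1 over the 6 arrays were Acacb, Slc27a4 and Acly, with a Pearson r of 0.88, 0.88 and 0.67. Their differences were -1.32, -2.27 and -0.51, and only Slc27a4 separated the groups. The farthest was Acaca, at -0.77. The part of Srebf1 in the values of other members was not tested.

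A pattern that crossed the groups was seen in a part of the list. In 11 of 33 members (33.3%) the 2 lowest arrays were Nas484 and Nas497, 1 WT and 1 Rac1-/- mouse, against 14.8% of all genes. They were Acss2, Elovl5, Elovl6, Scd1, Scd2, Fads1, Lpl, Fabp5, Gpam, Lpin1 and Insig1. The mean of the other 4 mice exceeded that of these 2 by 1.02 for Scd1 and by up to 2.98 for Elovl5, the 2 ends of the range. The gap between the higher of these 2 arrays and the lowest of the other 4 was 0.01 for Lpin1 and 2.55 for Elovl5. The pattern belonged to single probe sets in most cases: 10 of the 11 genes had another probe set, 13 in all, and only 3 of these, from Elovl5 and Scd2, had the same 2 lowest arrays. Of the adipocyte markers 6 of 11 (54.5%) had the same 2 lowest arrays. The summed linear intensity of the 11 was 32512, 26989 and 13228 in WT and 31602, 11746 and 30211 in Rac1-/- mice. That sum was carried mostly by the brightest markers, Fabp4 and Car3. The median log2 intensity of the 11 was 7.19, 7.13 and 7.34 in WT against 7.70, 6.89 and 6.99, so it was not low in Nas484. Macrophage markers had the same 2 lowest arrays in 5 of 10 and milk protein genes in 2 of 8. These 2 arrays also had the narrowest interquartile range in their group, 1.42 for Nas484 and 1.23 for Nas497. Nas518, at 1.48, was close to Nas484. The part of fat content, of RNA quality and of intensity range in the pattern was not tested.

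**Figure D4:**
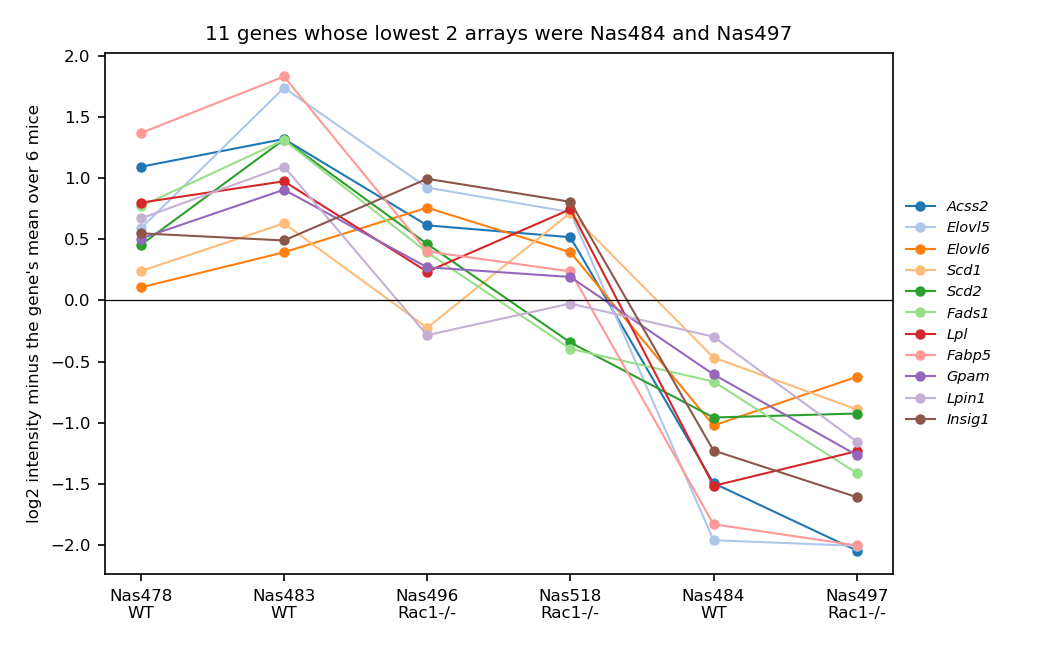
Log2 intensity minus the gene's mean over 6 mice (y axis) for the 11 members whose lowest 2 arrays were Nas484 and Nas497, with the mice ordered so that these 2 stand at the right. Each line is 1 gene; the last 2 mice, 1 of each group, lie below the other 4 for every line, by a mean of 1.02 (Scd1) to 2.98 (Elovl5).

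Without these 2 arrays, 2 mice were left in each group and the rest was normalized anew. Of 33 members, 26 lay below 0 and 7 above, and the median difference was -0.49 against 0.062 for all genes. Among the arrays left, the interquartile range before normalization was 2.85 and 2.42 in WT against 1.98 and 1.48 in Rac1-/- mice. The actin readout was 0.048 and 0.033 against -0.42 and -0.30. Neither overlapped between the groups, so this comparison cannot tell genotype from these array measures. No member was called, nor any of the 18194 genes (0%), and the smallest adjusted limma p of the members was 0.43. At an unadjusted p under 0.05, 2 members were lower, where the background was 2.78%, and 0 were higher, where it was 4.56%. The 2 were Olah, at -2.62 (SE 0.48), and Fabp5, at -1.29 (SE 0.49) from 12.12 and 12.57 in WT against 11.14 and 10.98 in Rac1-/- mice. In 12 members (36.4%) both Rac1-/- mice lay below both WT mice, where the background was 17.4%, and in 3 (9.09%) both lay above, where it was 21.8%. The 12 were Pdha1, Acss2, Me1, Olah, Fads1, Lpl, Slc27a4, Fabp5, Gpam, Lpin1, Dgat1 and Srebf1, and the 3 were Elovl6, Insig1 and Mlxipl. For the 11 genes whose lowest arrays were these 2, the differences without them were -0.68 for Acss2, -0.34 for Elovl5, 0.35 for Elovl6, -0.19 for Scd1, -0.90 for Scd2, -1.16 for Fads1, -0.41 for Lpl, -1.29 for Fabp5, -0.50 for Gpam, -1.14 for Lpin1 and 0.42 for Insig1. The largest SE among them was 0.61, where with all 6 arrays it was 1.07. The 11 genes were chosen for their low values on these 2 arrays, so a smaller SE follows from that choice. Leaving out Nas484 alone gave 11 members below without overlap, where the share of all genes was 11.8%, and leaving out Nas483 gave 6, where it was 7.14%.

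**Figure D5:**
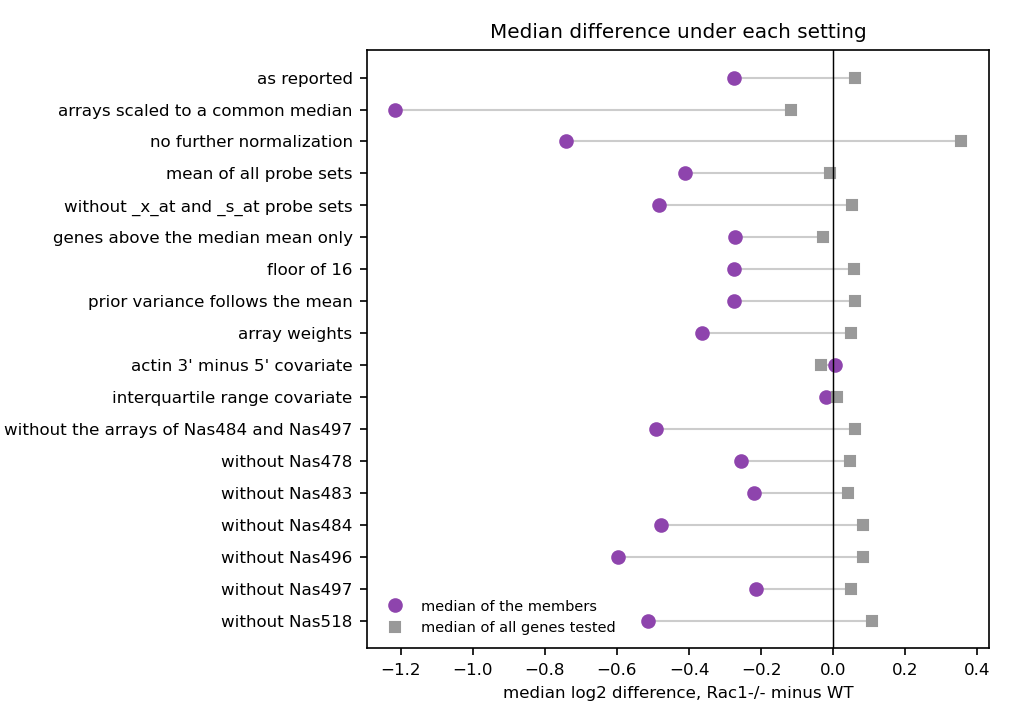
Median log2 difference, Rac1-/- minus WT, of the members (purple circles) and of all genes tested (grey squares) under each setting of the analysis (rows). The members' median lies below that of all genes in every row except the one with the actin covariate, where it is 0.0035 against -0.034, and runs down to -1.21 with arrays scaled to a common median.

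Beyond the 34 members, 64 further genes of the same pathway were listed and 58 had a value. Of these 23 lay above 0 and 35 below, with a median of -0.12. None was called, 1 was higher and 3 were lower at an unadjusted limma p under 0.05, and 4 lay wholly below the WT mice and 0 wholly above. Over all genes these shares were 2.23%, 1.82%, 4.2% and 5.41%, and 4 of 58 stood near the share of all genes. Without Nas484 and Nas497, 36 lay below 0 with a median of -0.21. Fabp3, the heart-type fatty acid binding protein, also abundant in the lactating gland, read 10.66, 10.67 and 11.90 in WT and 9.003, 9.48 and 7.95 in Rac1-/- mice, a difference of -2.27 (SE 0.58). Dlat, another subunit of pyruvate dehydrogenase, read 7.61, 8.51 and 8.16 against 6.82, 3.88 and 6.61, a difference of -2.32 (SE 0.79). Cd36, a fatty acid translocase that is also a scavenger receptor, had a difference of -1.52 (SE 0.60). These were the 3 lower genes of smallest p. On the higher side, Slc27a3 differed by 2.14 (SE 0.76) from dim values of 3.89, 1.61 and 2.86 against 6.14, 4.74 and 3.88, Slc27a2 by 1.89 (SE 1.04) and the desaturase relative Fads3 by 0.61 (SE 0.46). The further genes of carbon and NADPH supply were the most one-sided of these roles, with 13 of 15 below 0 and a median of -0.66. Elongation and desaturation had 5 of 11 below 0, uptake, binding and activation 5 of 10, triglyceride assembly 4 of 10 and regulators 8 of 12.

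The opposing pathway also lay mostly below 0, in a larger share than the members (90% against 75.8%). Of 22 genes of lipolysis and fatty acid oxidation 20 had a value, and 18 of these were below 0, 2 above, at a median of -0.51. Ehhadh, a peroxisomal enzyme of beta-oxidation, read 7.46, 8.06 and 6.64 in WT and 5.72, 5.21 and 6.54 in Rac1-/- mice, a difference of -1.56 (SE 0.56). It was the only one of the 20 at an unadjusted limma p under 0.05, where 1.82% of all genes were lower, and none was called. Cpt1a, the carnitine palmitoyltransferase of liver type, and the dehydrogenase Acadl also lay wholly below the WT mice, at -0.82 (SE 0.48) and -0.92 (SE 0.46). With Ehhadh they made 3 of 20 genes, beside 4.2% of all genes. Abhd5, the activator of adipose triglyceride lipase, differed by -1.01 (SE 0.55). The 2 genes above 0 were Hadhb, at 0.14, and Acadm, at 0.05. Without Nas484 and Nas497 the count was again 18 below 0, with a median of -0.59.

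The lists of cell type markers give the setting of these values. The adipocyte markers had 6 of 11 measured genes above 0, a median of 0.060 and 0 genes without overlap. Macrophage markers had 8 of 10 above 0 with a median of 0.67, myoepithelial markers 5 of 8 with a median of 0.18, and lymphocyte markers 3 of 5 with a median of 0.31. Skeletal muscle markers had 3 of 8 above 0 with a median of -0.28, and endothelial markers 2 of 5 with a median of -0.29. Elf5, a transcription factor of milk-secreting luminal cells, was the luminal marker that lay wholly below WT, at -1.45 (SE 0.47), while Krt18, Krt7, Cldn3 and Cldn4 lay wholly above. These were 1 and 4 of 10 luminal markers, beside 4.2% and 5.41% of all genes. Without Nas484 and Nas497 the medians were 0.12 for adipocyte, 0.38 for luminal, 0.81 for macrophage, 0.25 for myoepithelial, 0.76 for lymphocyte, -0.024 for skeletal muscle and 0.35 for endothelial markers, so the endothelial list changed sign, and the milk protein genes had 7 of 8 below 0 with a median of -0.91. The part of these lists in the members' values was not tested.

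Averaged over the 30 members whose mean was above the median of all genes, the profile over the mice was 0.28, 0.52 and -0.24 for WT against 0.16, -0.55 and -0.16 for Rac1-/- glands, as log2 values minus each gene's mean. It was highest in Nas483 and lowest in Nas497, and Nas484 lay below Nas496, so the profile did not separate the groups. Among 9067 other genes of like brightness, those closest to it over the 6 arrays were Vat1, Nhlrc3, Poldip3, Timm44 and Edem3, each with a Pearson r of 0.99 or above, as a description over 6 points that share the array differences given above. None of the 5 is an enzyme of fatty acid synthesis.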

How the data were processed

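The authors hybridised biotin labelled material from total RNA, amplified with a kit meant for scarce or degraded RNA, to Affymetrix mouse GeneChip arrays, 1 for each of 6 mice. The deposited values are linear intensities of 45101 probe sets. The summary algorithm is not given in the sources used here, but the mean of each array after trimming 2% at each end was 100.0, so each array had been scaled on its own. An array has no read depth, and the number of arrays limits the precision.

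Quantile normalization between arrays came first, then a floor of 1, then log2. Of the probe sets, 34958 name 1 gene symbol, 932 several and 9211 none. The brightest probe set by mean stood for each gene, which left 18194 genes. The test was limma 3.58.1 (lmFit, eBayes) in R 4.3.3, two-sided, with Benjamini-Hochberg adjustment over all genes and a threshold of 0.05. The fit was tested on simulated data. Nothing in the labels says more of the mice than that they were separate animals of 1 group. The genes named were all members, the 5 outside genes most like the members' mean profile, and the 3 of smallest p in each direction among the other pathway genes and the breakdown genes. Genes that lay wholly to one side, and Elf5 and the keratins and claudins, were named after their values were seen. Members and lists were chosen with earlier results of these data known. Promoter windows of 250 bases came from a RefSeq table and were searched on both strands. The 17 alternatives were another scaling or none, other probe set rules, filters and floors, variance settings, 2 covariates, and arrays left out. Acsl1, without a probe set of its own, and 7 members without a promoter window are not analysed further here.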

Additional observations from a re-analysis of the deposited data

How the results depend on the processing

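No member was called at an adjusted p of 0.05 in any of the 17 alternatives, nor was any other gene. The differences of 10 members kept their sign in every alternative that gave a value (Me1, Acacb, Olah, Slc27a4, Acsl4, Agpat1, Lpin1, Srebf1, Mlxipl and Thrsp), and those of the other 23 turned in at least 1. Only 30 of 33 members had a value among genes above the median mean. No paired analysis was possible because the labels give no number that WT and Rac1-/- mice share. Signal over background could not be judged, since detection calls are not used here. The cause of each change below was not tested.

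The members' median moved from -0.28 to -1.21 with arrays scaled to a common median, to -0.74 with no further normalization, to 0.0035 with the actin covariate and to -0.020 with the interquartile range covariate. Leaving out 1 mouse at a time gave -0.60 (without Nas496) to -0.21, with -0.48 without Nas484 and -0.51 without Nas518. The count of members higher at an unadjusted p under 0.05 was 0, and 1 with no further normalization, the mean of all probe sets, genes above the median only, a floor of 16, a prior variance that follows the mean, the actin covariate or the interquartile range covariate, and ran from 0 to 1 (without Nas483) over mice left out. The share of all genes higher was 2.23% as reported. In those settings it was 3.56%, 2.32%, 1.73%, 2.4%, 2.23%, 2.79%, 2.11% and, without Nas483, 1.35%. The count lower was 3, and 5 with a common median, 5 with the mean of all probe sets, 1 with the interquartile range covariate, and 1 (without Nas483) to 5 (without Nas484) over mice left out. The share of all genes was 1.82% as reported and 3.01%, 2.44%, 2.74%, 1.12% and 2.07% in those settings. Members wholly below WT numbered 3, and 5 with a common median, 6 with the mean of all probe sets, 12 without Nas484 and Nas497 together, then 3 to 11 (without Nas484) over mice left out, with 5 without Nas496, 5 without Nas518 and 6 without Nas483. The background moved too, from 4.2% of all genes to 6.65% with a common median, 5.75% with the mean of all probe sets, 17.4% without both arrays, 11.8% without Nas484, 10.5% without Nas496, 7.5% without Nas518 and 7.14% without Nas483. Those wholly above numbered 1, and 3 without Nas484 and Nas497 together, then 1 to 3 (without Nas497) over mice left out, with 2 without each of Nas483, Nas496 and Nas518. Here the share of all genes was 5.41% as reported, 21.8% without both arrays, 9.56% without Nas497, and 8.17%, 13% and 10.7% without Nas483, Nas496 and Nas518, so that 3 of 33 (9.09%) was at or below it. Over all genes the calls at an unadjusted p under 0.05 were 405 higher and 332 lower, and they ran to 1166 higher and 376 lower without Nas484 and to 208 higher and 412 lower without Nas497.

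Single differences turned as follows. With the actin covariate they were 0.43 for Pdha1, 0.0035 for Acly, 1.54 for Acss2, 2.10 for Elovl5, 0.69 for Scd1, 0.34 for Scd2, 0.20 for Fads1, 1.39 for Lpl, 1.16 for Fabp5, 0.65 for Gpam and -0.20 for Dgat1. With the interquartile range covariate they were 0.46 for Pdha1, 0.87 for Acss2, -0.020 for Acaca, 1.35 for Elovl5, 0.12 for Scd1, 0.36 for Scd2, 0.98 for Lpl, 0.79 for Fabp5 and 0.19 for Gpam. Scaling to a common median gave -0.58 for Slc25a1, -0.82 for Acaca, -0.96 for Fasn, -0.40 for Elovl6, -0.49 for Dgat1 and -0.38 for Insig1. With no further normalization the values were -0.11 for Slc25a1, -0.35 for Acaca, -0.49 for Fasn, 0.18 for Acsl3 and -0.016 for Dgat1. Array weights gave -0.13 for Fasn and -0.13 for Dgat1, the mean of all probe sets gave 0.15 for Fads1, and dropping probe sets that can cross-hybridize gave -0.16 for Vldlr. Without the arrays of Nas484 and Nas497 the values were -0.18 for Fasn, 0.14 for Elovl1 and -0.40 for Dgat1. With 1 mouse left out at a time the difference ran from -0.60 to 0.15 for Pdha1, from -0.20 to 0.48 for Slc25a1, from -1.54 to 0.30 for Acss2, from -0.038 to 0.52 for Acaca, from -0.34 to 0.37 for Fasn, from -1.29 to 0.74 for Elovl5, from -0.079 to 0.80 for Elovl6, from -0.70 to 0.11 for Scd1, from -0.94 to 0.065 for Fads2, from -0.98 to 0.41 for Lpl, from -0.91 to 0.71 for Slc27a1, from -0.48 to 0.12 for Acsl3, from -0.54 to 0.00056 for Agpat2, from -0.11 to 0.42 for Dgat1, from -0.65 to 0.49 for Dgat2 and from -0.48 to 1.05 for Insig1.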
